A study of Mus musculus with 23 samples.

Results

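The genes described here are those of the classical MHC class II chains and of the invariant chain: H2-Aa, H2-Ab1, H2-Eb1 and Cd74. They were found by their symbol in the platform annotation of the array, and each was represented by 1 probe set (92866_at for H2-Aa, 100998_at for H2-Ab1, 94285_at for H2-Eb1 and 101054_at for Cd74). No probe set annotated to several symbols held one of them. They are 4 of the 8251 genes with a probe set of a single symbol, and 4 of 12422 probe sets that were not controls.

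RNA came from whole hippocampi of male mice of the strain C57BL/6JNIA, 14 of them 15 months old and 9 of them 2 months old, with 1 array per mouse. Both ages had gone through training in a Morris water maze, in which mice learn the place of an escape platform, with 2 days on a visible and 7 days on a hidden platform at 4 trials a day, so that the comparison is one of age among trained mice. The labels name no transgene and no drug. The values are MAS5 signals, a linear measure of brightness per probe set. Markers of hippocampal neurons were bright on every array: 12 of the 14 on the array passed the filter on low signals, and their summed signal ran from 27252 to 36314 at 15 months and from 28842 to 33337 at 2 months.

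MHC class II molecules are pairs of an alpha and a beta chain that present peptides from ingested proteins to CD4+ T cells. The I-A molecule of the mouse is made of the products of H2-Aa and H2-Ab1, and the I-E molecule of those of H2-Ea and H2-Eb1. Cd74 encodes the invariant chain, which holds newly made class II pairs together and blocks their groove until proteases such as cathepsin S (Ctss) degrade it in endosomes. H2-DM then helps load the peptide, and H2-O restrains H2-DM. In the healthy brain these genes are used mainly by border-associated macrophages, dendritic cells and B cells of the meninges and choroid plexus, while resting parenchymal microglia express little of them. C57BL/6 mice carry the b haplotype of the MHC, in which H2-Ea is not transcribed because of a deletion, so that they transcribe H2-Eb1 but form no I-E molecule.

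Class II genes are switched on together through a conserved promoter module, read by the RFX complex, NF-Y and the co-activator CIITA. The promoters of H2-Aa and H2-Eb1 are shown as examples of this module. Those of H2-Ab1 and Cd74 were not examined here. The sequences are the 250 bases before the RefSeq start site, 5′ to 3′ on the strand of the gene, in the build GRCm38.p6, at chr17:34287824-34288073 on the minus strand for H2-Aa and chr17:34305617-34305866 on the plus strand for H2-Eb1. Capitals mark GNAAC, a core of the X box, and TGATTGG, which holds the CCAAT core of the Y box on the opposite strand.
H2-Aa: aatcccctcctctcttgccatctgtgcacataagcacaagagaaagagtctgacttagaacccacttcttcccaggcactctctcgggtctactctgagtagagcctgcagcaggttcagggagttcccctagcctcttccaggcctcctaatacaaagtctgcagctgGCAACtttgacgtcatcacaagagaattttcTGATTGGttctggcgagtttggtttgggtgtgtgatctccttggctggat
H2-Eb1: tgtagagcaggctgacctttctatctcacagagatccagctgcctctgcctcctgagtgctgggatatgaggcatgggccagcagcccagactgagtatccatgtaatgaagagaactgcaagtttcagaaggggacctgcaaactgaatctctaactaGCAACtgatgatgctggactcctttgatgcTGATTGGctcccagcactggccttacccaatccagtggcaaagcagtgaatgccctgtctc

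A search on both strands of 300-base windows (250 bases before to 50 after the start) asked for GNAAC followed 25 to 35 bases downstream by TGATTGG. The letters and spacing were chosen after these promoters had been seen. The pair was found in 6 of the 8 class II genes whose promoters were used, and in 106 of 32544 RefSeq mouse promoters of that length (0.326%). TGATTGG alone, in either orientation, was in 7.8% of them. The stretches from the first motif to the second are set side by side to show what the 6 promoters share.
H2-Aa: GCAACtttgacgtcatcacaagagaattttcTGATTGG
H2-Eb1: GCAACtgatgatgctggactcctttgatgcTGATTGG
H2-Eb2: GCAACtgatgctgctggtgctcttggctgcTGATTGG
H2-DMb1: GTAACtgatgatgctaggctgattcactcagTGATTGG
H2-Oa: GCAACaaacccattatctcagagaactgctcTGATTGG
H2-Ob: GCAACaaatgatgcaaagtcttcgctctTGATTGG
The motif starts lay 31 bases apart in H2-Aa, H2-DMb1 and H2-Oa, 30 in H2-Eb1 and H2-Eb2, and 28 in H2-Ob. The windows used for H2-DMa and H2-DMb2 did not hold the pair. A match of letters is a description of the sequence and not a measured binding site.

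The first question was whether these genes differ in level between 15-month and 2-month hippocampus. None of the 4 did by the test across all probe sets: all 4 means were higher at 15 months, by 1.04-fold to 1.39-fold, but each 95% interval held 0 and the ages overlapped for each gene. Over all probe sets past the filter, 45.0% were higher at 15 months. The test was limma on log2(signal + 16) with Benjamini-Hochberg adjustment, called at an adjusted p below 0.05. It called 28 of the 7453 probe sets past the filter (0.376%), 25 of them higher and 3 lower at 15 months. H2-Aa and H2-Ab1 lay below that filter, which was set at the 40th percentile of the mean log2 value (a value that corresponds to a signal of 91.7), and are given by the fit without a filter, which called 27 of 12422 probe sets (0.217%). Fold changes here and below are on the log2(signal + 16) scale, which understates the change of dim probe sets. In RNA of whole tissue, a change in the number of cells of a type and a change in RNA per cell cannot be told apart.

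H2-Eb1, the beta chain of I-E, had the largest difference of the 4. Its signal ran from 44.2 over a median of 172 to 309.7 in the 14 mice of 15 months, and from 45.4 over 99.1 to 198.0 in the 9 mice of 2 months. The 5 brightest mice were all 15 months old, while the low ends of the ages met: 4 mice of 15 months lay between 44.2 and 67.9 and the other 10 between 126.8 and 309.7. The mean was 169 ± 93.8 (SD, n = 14) against 111 ± 58.5 (SD, n = 9), a log2 difference of 0.47 ± 0.32 (SE) with a 95% interval from -0.18 to 1.13. The limma adjusted p was 0.553, and an exact permutation test over all 817190 regroupings of the mice, two-sided, gave p = 0.184. The interval allows for a 2.19-fold higher level at 15 months as well as for none.

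Cd74, the invariant chain, differed less. Its signal was 102.9, 204 and 411.7 (lowest, median and highest) at 15 months, and 71.3, 203 and 315.0 at 2 months. The medians were thus nearly equal, and 2 mice of 15 months lay above every mouse of 2 months. The mean was 228 ± 87.0 (SD, n = 14) against 207 ± 75.0 (SD, n = 9), a log2 difference of 0.15 ± 0.21 (SE) with an interval from -0.29 to 0.58 (limma adjusted p = 0.815, exact permutation p = 0.535). Without the 2-month replicate 3, the lowest mouse at 71.3, the difference was -0.011.

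H2-Ab1, the beta chain of I-A, was dim on this array, at the 26.8th percentile of mean signal. Its signal was 21.4, 32.7 and 78.5 at 15 months and 22.4, 35.5 and 91.5 at 2 months. No mouse of 15 months exceeded the highest mouse of 2 months, and 3 lay below the lowest. The means were 42.7 ± 21.4 (SD, n = 14) and 39.5 ± 20.9 (SD, n = 9), a log2 difference of 0.06 ± 0.21 (SE; limma adjusted p = 0.953, exact permutation p = 0.762). It ran from 0.004 without the 15-month replicate 7 to 0.191 without the 2-month replicate 6, the mouse at 91.5. H2-Ea, which this haplotype does not transcribe, was listed up to 29.8 at 15 months and 47.5 at 2 months. The lower H2-Ab1 signals at each age fell within the H2-Ea range, so they are not shown to lie above background.

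H2-Aa, the alpha chain of I-A, was dimmer still, at the 16.5th percentile, and its probe set leaves little room to measure a fall. Its signal was 10.4, 21.2 and 59.8 at 15 months and 14.9, 19.3 and 23.1 at 2 months. The mice of 15 months surrounded those of 2 months, with 6 above the highest and 3 below the lowest of them. The means were 23.4 ± 12.3 (SD, n = 14) and 19.0 ± 3.13 (SD, n = 9), a log2 difference of 0.12 ± 0.15 (SE; limma adjusted p = 0.866, exact permutation p = 0.403). Without the 15-month replicate 10, the mouse at 59.8, the difference was 0.045. The H2-Aa medians, 21.2 and 19.3, lay within the range of H2-Ea, 6.6 to 29.8 at 15 months and 8.0 to 47.5 at 2 months. The H2-Aa signals are thus not shown to lie above background at either age. On the log2 scale the SD among mice was 0.39 at 15 months and 0.13 at 2 months, whereas it was 0.51 and 0.44 for H2-Ab1, 0.88 and 0.68 for H2-Eb1 and 0.51 and 0.59 for Cd74. These SDs are a description, with no test of their difference.

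**Figure D1:**
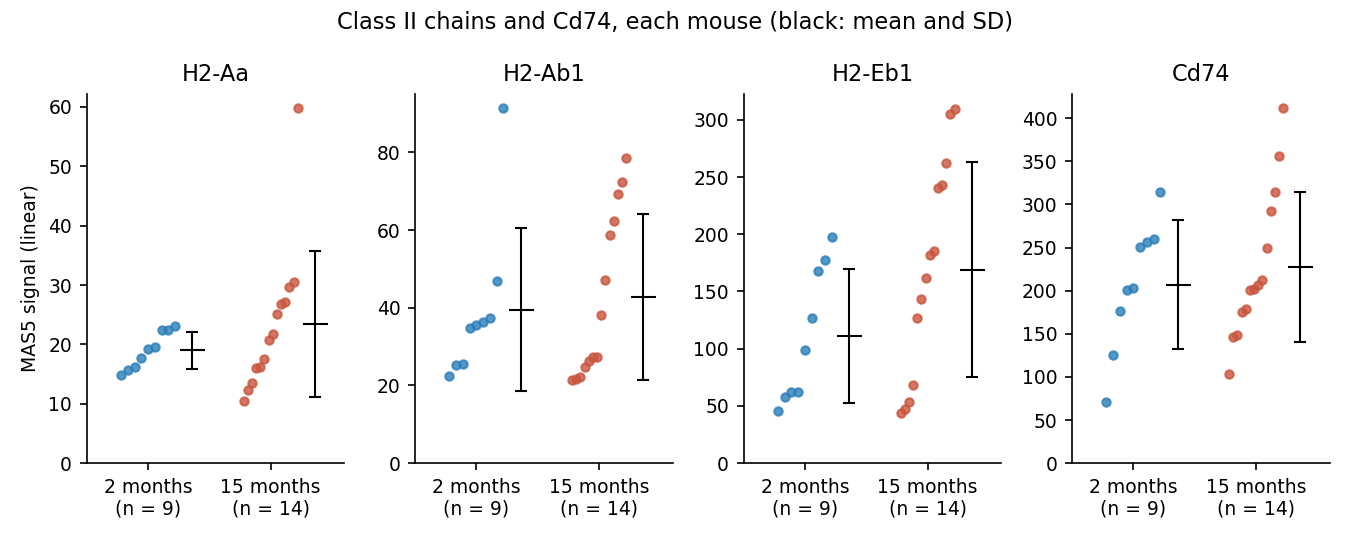
MAS5 signal of H2-Aa, H2-Ab1, H2-Eb1 and Cd74 on a linear axis from 0, 1 point per mouse, at 2 months (blue, n = 9) and 15 months (red, n = 14), with the mean and SD in black beside each age. The ages overlap in all 4 panels, and the 5 highest H2-Eb1 signals, up to 309.7, are all from mice of 15 months.

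The other class II chains and the peptide-loading genes gave no call either. Of the 11 genes of this list on the array, 3 passed the filter, 0 were called, and their median log2 difference was 0.15, against -0.02 over all probe sets tested. Those 3 include H2-Eb1 and Cd74, and the median of all 11 genes was 0.06. At an unadjusted p below 0.05 the limma fit with the filter held 924 probe sets, and no gene of this list was among them or reached it without the filter. H2-DMa, the alpha chain of the peptide-loading H2-DM, was measured at 996 ± 113 (SD, n = 14) and 997 ± 94.9 (SD, n = 9), a log2 difference of 0.00 with an interval from -0.14 to 0.13 (limma adjusted p = 0.984). That interval is the narrowest of the list. A second, dimmer H2-DMa probe set differed by -0.05.

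Below the filter, H2-DMb1 and H2-DMb2, the beta chains of H2-DM, differed by -0.04 and -0.31, and a probe set annotated to both by 0.11. H2-Oa and H2-Ob, the chains of H2-O, differed by 0.29 ± 0.18 (SE; limma adjusted p = 0.646) and 0.27 ± 0.22 (SE; adjusted p = 0.761). H2-Oa was above the mean of 2 months in 12 of 14 mice of 15 months. H2-Eb2, a second I-E beta gene, differed by -0.08. H2-Ea, whose transcription this haplotype lacks, was listed between 6.6 and 29.8 at 15 months and between 8.0 and 47.5 at 2 months (log2 difference -0.27 ± 0.17, SE).

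Among the transcription factors of the class II promoter, 8 of 10 genes on the array passed the filter and 0 were called (median 0.02). Ciita, the co-activator that sets class II transcription, was at 110 ± 27.4 (SD, n = 14) and 111 ± 44.4 (SD, n = 9), a log2 difference of 0.06 ± 0.21 (SE; limma adjusted p = 0.930). Nfya, a subunit of NF-Y, had the lowest p of the list, with 184 ± 32.1 against 230 ± 40.1 (log2 difference -0.30 ± 0.11, SE; limma adjusted p = 0.246). Only 1 of 14 mice of 15 months lay above the mean of 2 months for Nfya.

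The list for proteolysis of the invariant chain and the antigen, not all of whose genes encode proteases, held the one call of the pathway. Of 10 genes on the array 9 passed the filter, 1 was called, and 8 of the 9 were above 0 (median 0.05). Ctss, the cathepsin that makes the last cut in the invariant chain, rose from 1725 ± 153 (SD, n = 9) to 2443 ± 219 (SD, n = 14). The log2 difference was 0.50 ± 0.06 (SE, limma adjusted p = 9.34e-06), with no overlap between the ages. Of the 7453 probe sets past the filter, 4 had no overlap, by the smallest p of a Mann-Whitney test. Ctsz, another cathepsin, had 278 ± 36.8 against 199 ± 45.6, a log2 difference of 0.46 ± 0.11 (SE) and a limma adjusted p of 0.0508, which fell below 0.05 in 10 of the 36 settings that tested it. Ifi30, a lysosomal thiol reductase induced by interferon gamma, lay below the filter with 47.9 ± 16.4 against 24.1 ± 12.4 (log2 difference 0.67 ± 0.19, SE; limma adjusted p = 0.175 without a filter).

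Of the list for costimulation and class II turnover, 10 genes were on the array, 2 passed the filter and 0 were called. Their median log2 difference was -0.13, and that of all 10 was 0.03. The lower p of those 2 was that of Cd4, the co-receptor that binds class II, with 175 ± 68.9 against 212 ± 76.2 (log2 difference -0.29 ± 0.23, SE; limma adjusted p = 0.635). Of the interferon gamma pathway, which induces Ciita, 10 of 18 genes passed the filter, 0 were called and 9 were above 0 (median 0.04), against 45.0% of all probe sets past the filter above 0. Ifngr1, a chain of the interferon gamma receptor, had the lowest p, with 118 ± 41.9 against 80.0 ± 40.8 (log2 difference 0.52 ± 0.23, SE; limma adjusted p = 0.361). Over the 5 lists, 58 genes were on the array, 31 passed the filter and 1 was called (3.23%, against the 0.376% of all probe sets), a share that rests on Ctss alone.

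**Figure D2:**
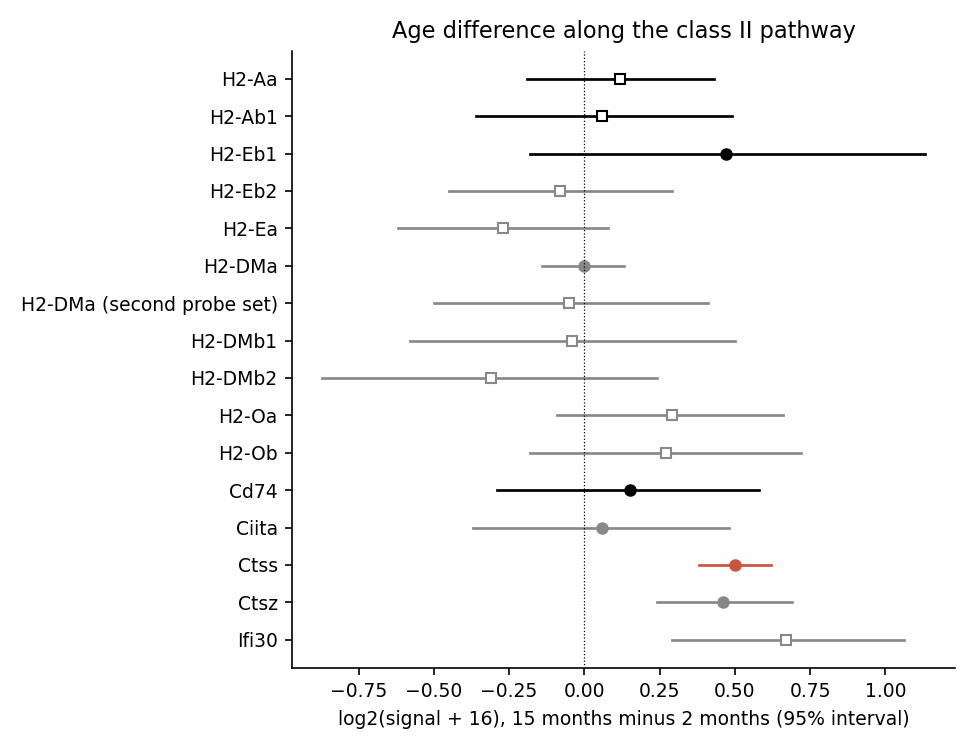
Log2(signal + 16) at 15 months minus that at 2 months, with its 95% interval, for the probe sets of the class II list, Ciita, Ctss, Ctsz and Ifi30. Filled circles passed the filter on low signals and open squares did not, the 4 genes described here are black, and the single call, Ctss at 0.50, is red. The intervals of all class II chains and of Cd74 cross 0.

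Cells that use class II genes, or that lie next to them, were followed by marker lists, whose part in the values of the 4 genes was not tested unless stated. Over all probe sets past the filter 28 of 7453 were called (0.376%), and the lists were chosen with earlier results of these data known. Of 8 microglial markers past the filter 2 were called, both higher at 15 months: Ly86 (343 ± 65.5 against 216 ± 33.3, SD) and Mpeg1. The summed microglial signal ran from 3688 to 4489 at 15 months and from 3266 to 3954 at 2 months. Csf1r, the brightest microglial marker, was at 1174 ± 134 against 1165 ± 166. Of the border macrophage markers 8 of 12 were on the array, 4 passed, 0 were called, and the sum was 584.6 to 839.3 against 653.2 to 805.6. The lowest p there was that of Dab2 (111 ± 34.5 against 144 ± 33.4, limma adjusted p = 0.328), and Mrc1, a defining marker, was below the filter.

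Of the dendritic cell markers 6 of 11 passed and 0 were called, with a sum of 1612 to 2069 against 1732 to 2055. Of the B cell markers 5 of 13 passed and 1 was called: Ighm, the immunoglobulin mu chain, at 692 ± 131 against 408 ± 57.5 (log2 difference 0.73 ± 0.10, SE, limma adjusted p = 2.08e-04). The list sum, of which Ighm is a large part, was 1329 to 2421 against 983.1 to 1444. The other markers past the filter, Blnk, Cd79a, Ms4a1 and Pax5, differed by 0.41, 0.06, -0.02 and -0.31 and were not called. Of the T and NK cell list 2 of 14 passed, of the list for monocytes and neutrophils 4 of 11, and of the red cell list 2 of 4, all with 0 calls. Of 12 endothelial markers 1 was called, the glucose transporter gene Slc2a1 (958 ± 222 against 643 ± 121). For comparison with the B cell and endothelial calls, 0.376% of all probe sets past the filter were called. The sums of the meningeal list (10017 to 32486 against 12415 to 26169) and of the choroid plexus list (2108 to 20831 against 2668 to 18413) overlapped widely between the ages, with 0 of 16 and 0 of 6 genes called.

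The choroid plexus list separated 5 mice from the rest. Its mean of log2(signal + 16) lay between 9.80 and 10.73 in the 15-month replicates 3, 5, 7 and 11 and at 10.55 in the 2-month replicate 2, but between 7.62 and 8.82 in the other 18 mice. In those 4 mice of 15 months H2-Ab1 was between 58.8 and 78.5 and Cd74 between 249.8 and 411.7. In the other 10 mice of 15 months H2-Ab1 was between 21.4 and 69.4 and Cd74 between 102.9 and 356.7. The 2-month replicate 2 had the highest Cd74 signal of its age, 315.0, and a low H2-Ab1 signal, 25.4. Without the 5 mice the log2 age difference was 0.088 for H2-Aa, -0.220 for H2-Ab1, 0.168 for H2-Eb1 and 0.027 for Cd74, none called, and the count of all probe sets called was 16. The difference of H2-Eb1 was thus 0.47 with these mice and 0.168 without them.

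The mice that were high or low were in part the same for several of the 4 genes. Among the mice of 15 months, replicate 7 had the highest H2-Ab1 (78.5), H2-Eb1 (309.7) and Cd74 (411.7) and the second H2-Aa (30.6). Replicate 10 had the highest H2-Aa (59.8) and the second H2-Eb1 (305.0) and Cd74 (356.7), yet nearly the lowest H2-Ab1 (21.6). At the other end, replicate 4 had the lowest H2-Aa (10.4) and Cd74 (102.9), and replicate 8 the lowest H2-Eb1 (44.2). Among the mice of 2 months the highest were different for each gene: replicate 2 for Cd74 (315.0), replicate 6 for H2-Ab1 (91.5), replicate 8 for H2-Eb1 (198.0) and replicate 5 for H2-Aa (23.1).

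**Figure D3:**
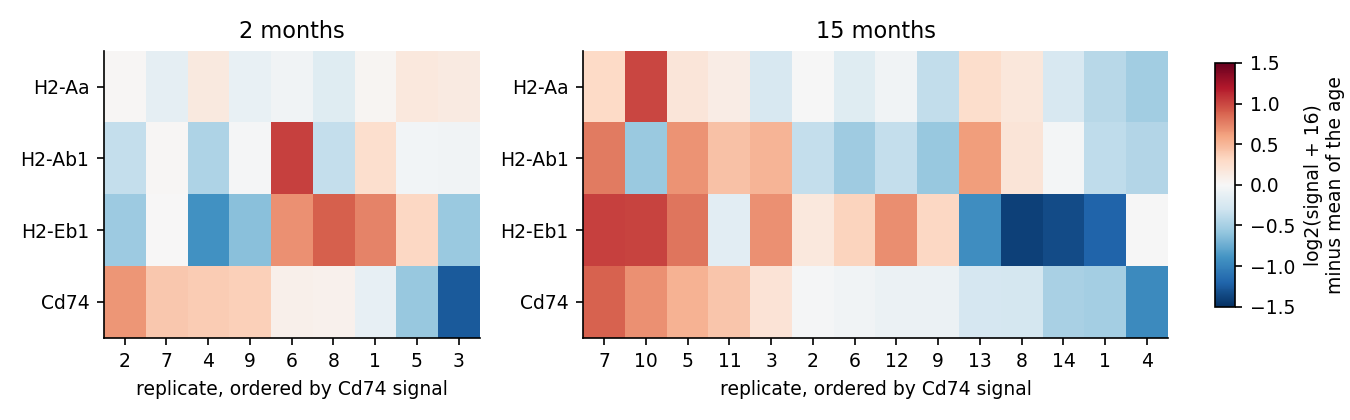
Deviation of log2(signal + 16) from the mean of the age for each gene (rows) and mouse (columns, ordered by Cd74 signal within the age), from blue (lower) to red (higher). At 15 months the 3 mice of highest Cd74, replicates 7, 10 and 5, are also above the mean of the age in H2-Eb1 and H2-Aa. The next, replicate 11, is slightly below that mean in H2-Eb1 (126.8), and replicate 3 is slightly below it in H2-Aa (16.2).

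Correlations were computed within each age on log2(signal + 16): the 12 pairs of the 4 genes, and each gene with the mean of each of 9 marker lists, 84 relations in all. P-values came from exact pairings for 9 mice and from permutations for 14, two-sided, and were adjusted over the 84. By Pearson's r 2 relations had an adjusted p below 0.05 and 15 an unadjusted one. By Spearman's rho 3 had an adjusted p below 0.05.

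At 15 months H2-Eb1 and Cd74 had r = 0.67 (n = 14, permutation p = 0.00872, adjusted 0.164) and rho = 0.78 (permutation p = 0.00163, adjusted 0.0456). Without the 2 mice of most extreme H2-Eb1 r was 0.65, and it was 0.64 within the 10 mice of H2-Eb1 above 100. H2-Aa and Cd74 had r = 0.71 (permutation p = 0.00376, adjusted 0.105) and rho = 0.71 (permutation p = 0.00573, adjusted 0.0638), and r = 0.56 without the 2 mice of most extreme H2-Aa. H2-Ab1, the partner of H2-Aa in I-A, had r = 0.25 with H2-Aa, 0.01 with H2-Eb1 and 0.44 with Cd74, with adjusted permutation p-values of 0.698, 0.998 and 0.411, and rho was 0.48, 0.06 and 0.35. These values moved when 2 mice were left out: without the 2 mice of most extreme first-named gene of the pair, r was 0.73 for H2-Aa with H2-Ab1, -0.36 for H2-Ab1 with H2-Eb1 and 0.12 for H2-Ab1 with Cd74. The H2-Aa signals at 15 months and the lower H2-Ab1 signals are not shown to lie above background, so their relations describe the probe sets.

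Within the 10 mice of 15 months with a low choroid plexus mean, r was 0.58 for H2-Eb1 with Cd74 and 0.82 for H2-Aa with Cd74, the latter 0.26 without the 2 mice of most extreme H2-Aa. H2-Ab1 there had r = 0.18 with H2-Aa, -0.22 with Cd74 and -0.68 with H2-Eb1, the last with permutation p = 0.0249 and an adjusted p of 0.226. No pair of the 4 genes had an adjusted p below 0.05 by r within these mice.

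At 2 months the same pairs gave r = -0.12 for H2-Eb1 with Cd74, -0.52 for H2-Aa with Cd74 and -0.15 for H2-Aa with H2-Ab1, and r over all 6 pairs ran from -0.52 to 0.49. None had an adjusted p below 0.05 in exact tests on 9 mice. The difference in r between the ages was tested over all regroupings of the age-centred values, for 6 pairs. That difference was 1.23 for H2-Aa with Cd74 (permutation p = 0.00619, adjusted 0.0372) and 0.80 for H2-Eb1 with Cd74 (permutation p = 0.0248, adjusted 0.0745). The other 4 had adjusted permutation p-values from 0.290 to 0.722. The test takes the spread of a gene to be alike at both ages. For H2-Aa the log2 SD was 0.39 at 15 months and 0.13 at 2 months, so its p-values are approximate. The call for H2-Aa with Cd74 also rested on single mice. With each of the 23 mice left out in turn and the permutation p adjusted over the 6 pairs, it was lost in 11 runs and kept in 12. The adjusted p-values ran from 0.0116 to 0.116. At 2 months the whole range of H2-Aa was from 14.9 to 23.1. These data do not show that the H2-Aa signals of either age lay above background, so the value describes the probe set.

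Over all 23 mice with each age centred on its mean, the 4 genes were not each other's nearest neighbours. Among 7454 probe sets ranked by their r with Cd74, H2-Aa ranked 378 (r = 0.42), H2-Eb1 483 (r = 0.38) and H2-Ab1 1404 (r = 0.21).

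The signal of Cd74 followed the meningeal and fibroblast list at 15 months. At 2 months r had the same sign, but its adjusted p did not pass 0.05. At 15 months r was 0.82 (n = 14, permutation p = 0.0004, adjusted 0.0168) and rho 0.82 (permutation p = 0.00075, adjusted 0.0315), with r = 0.71 without the 2 mice of most extreme list mean, and from 0.75 to 0.88 when 1 mouse was left out. After quantile normalisation r was 0.803 and its adjusted permutation p 0.0571. At 2 months r was 0.72 (n = 9, exact p = 0.0296, adjusted 0.209) and rho 0.85 (exact p = 0.00607, adjusted 0.0638), with r = 0.54 without 2 mice. Within the mice of low choroid plexus mean r was 0.70 at 15 months (n = 10, permutation p = 0.0131, adjusted 0.226) and 0.67 at 2 months (n = 8, exact p = 0.0617, adjusted 0.399). The meningeal list was not alone in this. With the endothelial list Cd74 had r = 0.58 at 15 months (permutation p = 0.0292, adjusted 0.209) and 0.77 at 2 months (exact p = 0.0158, adjusted 0.164). Without the 2 mice of most extreme endothelial mean these were 0.36 and -0.01.

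Of the 16 meningeal genes past the filter 14 had r above 0 with Cd74 at 15 months and 14 at 2 months, with medians of 0.67 and 0.59. Over all 23 age-centred mice the highest were Islr (r = 0.77), Mgp (0.76) and the transporter gene Slc6a13 (0.76). The fibroblast genes Col1a2 (-0.17), Dcn (0.04) and Pdgfra (0.04) had r near or below 0. Igf2 (0.73) and Igfbp2 (0.64) were on the choroid plexus list as well, so the lists are not independent. At 15 months r with the list was 0.63 for H2-Aa, 0.57 for H2-Ab1 and 0.50 for H2-Eb1, with adjusted permutation p-values of 0.164, 0.209 and 0.335. At 2 months r was below 0 for each of these 3, at -0.28, -0.34 and -0.09, with adjusted exact p-values of 0.753, 0.670 and 0.914. Other lists had r of like size at 15 months. The neuronal list had -0.62 with H2-Aa and -0.66 with H2-Ab1, and the B cell list 0.62 with H2-Ab1, each with an adjusted permutation p of 0.164. The meningeal list mean ran from 8.51 to 9.89 at 15 months and from 8.62 to 9.68 at 2 months. With that mean as a covariate the log2 age difference of Cd74 was -0.075 instead of 0.15.

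**Figure D4:**
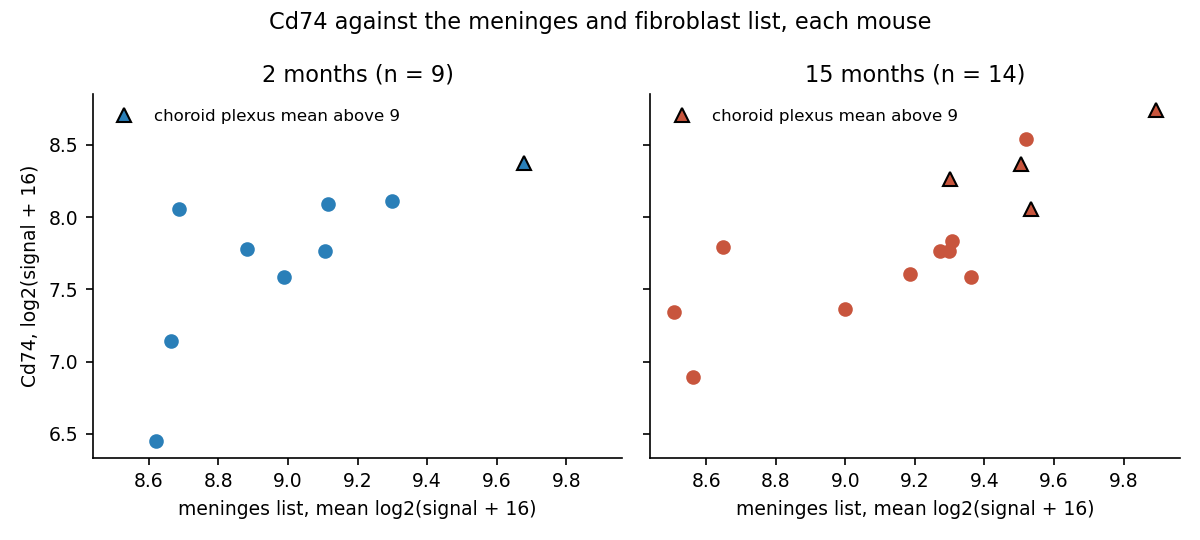
Cd74 signal on the log2(signal + 16) scale against the mean of the 16 meningeal and fibroblast genes on the same scale, 1 point per mouse, at 2 months (n = 9) and 15 months (n = 14). Triangles are the mice whose choroid plexus list mean was above 9. Pearson's r was 0.72 at 2 months (adjusted exact p = 0.209) and 0.82 at 15 months (adjusted permutation p = 0.0168).

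For the choroid plexus list the mice fell into separate groups, so its relations were computed only within the 10 and 8 mice of low list mean. There r with Cd74 was 0.45 at 15 months and 0.32 at 2 months, and with H2-Ab1 0.08 and 0.36, with adjusted permutation p-values of 0.480, 0.698, 0.914 and 0.632 for n = 10 and n = 8. H2-Aa and the endothelial list had r = -0.92 at 2 months (n = 9, exact p = 0.000157, adjusted 0.0132; rho = -0.93, adjusted 0.0315) but r = 0.59 at 15 months (n = 14, permutation p = 0.0421, adjusted 0.236). After quantile normalisation the 2-month value was -0.661 (exact adjusted p = 0.364). The H2-Aa signals at 2 months ran only from 14.9 to 23.1. H2-Ea, which this haplotype does not transcribe, was listed from 8.0 to 47.5 in the same mice. The H2-Aa signals are thus not shown to lie above background, and the relation may not be one of the gene. Apart from the meningeal list with Cd74 and the endothelial list with H2-Aa, no list gave an adjusted p below 0.05 with any of the 4 genes. The microglial and border macrophage lists were among these, and the border macrophage mean rested on 4 markers past the filter.

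The genes whose pattern was most like the mean of the 4 were ranked by Pearson's r over the 23 age-centred mice, among 6754 probe sets of 1 symbol past the filter, whose median r was 0.01. The 10 highest were Slc6a20b (r = 0.80), Tcn2 (0.76), Cavin1 (0.76), H2-K1 (0.76), Serping1 (0.74), Pltp (0.74), Tmem179b (0.70), Tagln (0.70), Armc10 (0.70) and Slc6a13 (0.70). H2-K1 encodes a class I heavy chain, Serping1 the C1 inhibitor of complement, Tcn2 the vitamin B12 carrier transcobalamin and Tagln an actin-binding protein of smooth muscle. Slc6a13 was also on the meningeal list, and none of the other 9 was on a list. The 3 lowest were Specc1 (-0.72), the GABA receptor subunit gene Gabrb1 (-0.71) and the neuronal kinase gene Mapk10 (-0.66). None of the 13 was called between the ages, with limma adjusted p-values from 0.258 for H2-K1 (1112 ± 201 against 923 ± 109) to 0.965 for Specc1.

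The arrays were alike in scale, with a trimmed mean of 499.9 on each and pairwise correlations from 0.943 to 0.983. The 15-month replicate 13, whose lower quartile was 53.6 against 30.3 to 41.9 on the others, and the 2-month replicate 3 stood farthest from the rest. Replicate 13 was high in both dim genes, H2-Aa (29.7) and H2-Ab1 (69.4), and low in H2-Eb1 (67.9). Without these 2 arrays the log2 age difference was 0.118 for H2-Aa, 0.008 for H2-Ab1, 0.474 for H2-Eb1 and 0.009 for Cd74.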

How the data were processed

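RNA of 23 hippocampi, extracted with TRIzol and labelled with biotin per the labels' protocols, was measured on 1-colour Affymetrix arrays. The authors deposited linear intensities, with a single MAS5 signal for each probe set on each array, as the submitters' processing notes name the method without its version or settings. Of 12488 probe sets, 66 controls were left out, and 10833 had 1 gene symbol, 396 several and 1193 none. The number of arrays limits the precision; no detection calls were used here. Ages came from the labels. Replicate numbers were given in accession order, name a mouse within its age and pair none. The labels name no batch, and nothing says in which order samples were handled, so any such effect cannot be told apart from age.

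Here 16 was added to each signal and log2 taken. Probe sets above the 40th percentile of mean log2 value were fitted with limma 3.58.1 in R 4.3.3 (lmFit; eBayes with intensity trend and robust variance; 15 months minus 2 months; two-sided), with Benjamini-Hochberg adjustment over all of them. The fit was tested on simulated data. A planned test of the spread called no simulated difference in spread and was not used. Exact permutation tests, and correlations with 100000 permutations for 14 mice, were run in Python 3.11.15 with scipy 1.17.1. A gene of a list was represented by its brightest probe set with 1 symbol.

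The genes and lists were chosen with earlier results of these data known. Named were the 4 genes, the class II list, Ciita and Ctss whatever their result. In each other pathway list the calls or else the lowest p were named, as were the 10 most and 3 least alike genes. Of marker lists the plan was to name the brightest gene and that of lowest p. This was done for the microglial and B cell lists. For border macrophages and endothelium only the lowest p was named by this rule. No marker was named by it for dendritic cells, monocytes and neutrophils, T and NK cells, choroid plexus, neurons or red cells. Ctsz, Ifi30, H2-K1's means, Mpeg1, Mrc1, the B cell markers other than Ighm and the meningeal genes were named after their values were seen. Promoters are from RefSeq (GRCm38.p6), matched by symbol for 8 of 11 class II genes, 2 of them among the 4. Alternatives were pseudocounts of 1 and 64, no filter and one at the 60th percentile, quantile normalisation, median centring, plain eBayes, array weights, a Mann-Whitney test, leaving out each mouse or the 2 farthest arrays, and, chosen after the data were seen, the meningeal or choroid plexus mean as covariate and leaving out the 5 mice of high choroid plexus mean.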

Additional observations from a re-analysis of the deposited data

Results flagged for a closer look

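In 26 groups of 9 mice of 2 months, covering probe sets of named genes, the linear signals were screened for single mice far from the rest. A mouse was marked where its gap to the nearest other, as a share of the whole range, exceeded Dixon's 95% critical value. For normally distributed values chance marks about 1 group in 20. Whether these linear signals are so distributed was not tested, so the number of marks cannot be read as an excess over chance. H2-Ab1 was 91.5 in replicate 6, and 46.8 in the next mouse. H2-Eb2 was 42.8 in that same replicate 6, and 13.6 in the next. H2-DMb2 was 151.3 in replicate 3, one of the 2 arrays farthest from the rest, and 71.6 in the next. H2-Ob was 23.6 in replicate 8, against 11.6. Armc10, one of the genes most like the mean of the 4, was lowest in replicate 9, at 249.8 against 288.9 in the next. H2-Ab1, H2-Eb2, H2-DMb2 and H2-Ob all lay below the filter on low signals.

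The correlation of H2-Aa with Cd74 differed between the ages by 1.23, from r = 0.71 at 15 months to -0.52 at 2 months (permutation p = 0.00619 with n = 14 and 9, adjusted over 6 pairs 0.0372). The p-value is approximate, because the test takes the spread to be alike at both ages. The log2 SD of H2-Aa was 0.39 at 15 months and 0.13 at 2 months. With 1 mouse left out the difference ran from 1.07 to 1.41, and the call was lost for 11 of the 23 mice. The permutation p adjusted over 6 pairs was highest without the 2-month replicate 5, at 0.116. It was 0.0943 without the 2-month replicate 3 and 0.0630 without the 15-month replicate 10. The other mice whose removal ended the call were the 15-month replicates 1, 5, 7, 9 and 14 and the 2-month replicates 1, 7 and 9. The H2-Aa signals, 14.9 to 23.1 at 2 months and 10.4 to 59.8 at 15 months, are not shown here to lie above background. The difference is thus one of probe set signals and may not be one of the gene.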

How the results depend on the processing

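None of the 4 genes was called in any of the 142 combinations of gene and alternative. The log2 age difference ran from 0.043 to 0.165 for H2-Aa, from -0.220 to 0.191 for H2-Ab1 (3 settings below 0), from 0.168 to 0.584 for H2-Eb1 and from -0.075 to 0.230 for Cd74 (3 below 0), and the lowest adjusted p over all settings was 0.423, for H2-Eb1. The Mann-Whitney test called 0 probe sets and 0 pathway genes, 891 had an unadjusted p below 0.05, and its smallest adjusted p was 0.111. It used a normal approximation, which gave ages without any overlap a p of 8.25e-05, shared by 4 probe sets. That p is too large for a call over 7453 probe sets when so few share it. The 0 calls of this test therefore do not bear on the call of Ctss. Without the 5 mice of high choroid plexus mean 16 probe sets were called. Pathway calls were 2, Ctss and Ctsz, with a pseudocount of 64, quantile normalisation, median centring, plain eBayes and array weights, and from 1 to 2 with 1 mouse left out. The cause was not tested. The correlation of Cd74 with the meningeal list at 15 months was 0.803 after quantile normalisation (adjusted permutation p = 0.0571) and 0.703 within the 10 mice of low choroid plexus mean. That of H2-Aa with the endothelial list at 2 months was -0.661 after quantile normalisation. The planned test of spread and its alternatives were not run. No paired analysis was possible because replicate numbers were given in accession order and pair no mice. H2-Aa and H2-Ab1 were dim and not all of their signals are shown to lie above background, so differences in them were less measurable than in Cd74.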
